A study of Caenorhabditis elegans with 2 samples.

Results

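DAF-16, the FOXO transcription factor of Caenorhabditis elegans, carries out much of what reduced insulin signalling does to stress resistance, metabolism and lifespan, and 10 of its known target genes were examined in a map of where another lifespan factor, the ETS-family protein ETS-4, sat on chromatin. The genes were sod-3, mtl-1, dod-3, dod-17, ins-7, scl-1, lea-1, icl-1, ctl-1 and hsp-12.6, taken from 19973 annotated protein-coding genes because they are textbook DAF-16 targets. A region counted for a gene when its summit, the position of strongest enrichment, lay in the gene body or in the 5000 bp before the annotated 5' end. Chromatin immunoprecipitation with sequencing was done with an antibody against GFP on whole young adult worms of 73 h, of mixed sex, in 2 biological replicates that form 1 group. All worms were of strain RAF1713, which carries an ets-4-GFP fusion under the ets-4 promoter and 3' UTR with an unc-119(+) marker, inserted on chromosome II, in an unc-119(ed3) background, and all were synchronised as starved L1 larvae after bleaching. The labels describe the tag as C-terminal GFP-FLAG. No control precipitate was analysed here, and in whole animals the tissues behind a signal cannot be told apart.

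When insulin-like peptides bind the receptor DAF-2, kinases keep DAF-16 out of the nucleus. When the signal is low, DAF-16 enters the nucleus and binds the sequence GTAAACA, the DAF-16 binding element, near its targets. A separate sequence, CTTATCA, the DAF-16 associated element, also marks genes of this response, and on its other strand it contains TGATAA, the sequence of GATA factors, which are active in the worm intestine. ETS factors bind sequences built around GGAA or GGAT, such as CCGGAA and CCGGAT. Only these longer forms were searched for here, and the core alone was not. Most of the genes listed here are known to rise when insulin signalling falls, whereas ins-7 and dod-17 are known to fall.

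The candidates numbered 30000 in each replicate and 30000 when both were pooled. The authors also deposited the regions kept at their threshold on the irreproducible discovery rate, called IDR regions from here on, which came to 3.67% as many as the pooled list. No pooled region outside that list reached the lowest IDR signal, 79.4. The pooled list is labelled as peaks and background used as input for IDR, so a region outside the IDR list can be background. Rank 1 is the region with the highest signal value, as deposited by the authors, and signal values of different lists are not on one scale. Sequencing depth is unknown, so a region's counting error is unknown too.

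The sequence before dod-3 is shown first, because, of the GTAAACA sequences in the 1000 bp upstream of the named genes, 1 was covered by an IDR region and it is here. These are the 300 bases before the gene's 5' end, read towards the gene (ce11, chrV:2731099-2731398, minus strand). Capitals mark CCGGAA on the other strand at -254 bp, CTTATCA at -148 bp, TGATAA at -56 bp directly followed by GTAAACA on the other strand at -50 bp, and TGATAA on the other strand at -17 bp.
dod-3: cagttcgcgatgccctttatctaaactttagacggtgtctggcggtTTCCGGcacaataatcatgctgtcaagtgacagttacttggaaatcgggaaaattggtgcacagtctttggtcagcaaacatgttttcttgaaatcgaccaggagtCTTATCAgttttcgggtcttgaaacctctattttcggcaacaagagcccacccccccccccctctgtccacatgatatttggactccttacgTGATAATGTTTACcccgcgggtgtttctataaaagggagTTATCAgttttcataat

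The ins-7 summit is shown with 50 bases to each side (chrIV:9682682-9682782, minus strand), because it had a higher signal than the dod-3 summit. The searched sequences were those named above together with the E-box CACGTG, and none of the 6 occurred in it on either strand, so it has no capitals.
ins-7: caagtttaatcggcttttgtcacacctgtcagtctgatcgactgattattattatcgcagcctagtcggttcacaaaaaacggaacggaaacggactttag

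For icl-1, 38 bases outside any UTR and beside the summit of its strongest region are shown (chrV:731534-731571, minus strand), followed by the window around a weaker summit inside the gene (chrV:727535-727635, minus strand), where capitals mark CCGGAT and CCGGAA. The strongest region held none of the searched sequences within 50 bp of its summit.
icl-1 strongest: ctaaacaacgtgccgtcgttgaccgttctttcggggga
icl-1 in the gene: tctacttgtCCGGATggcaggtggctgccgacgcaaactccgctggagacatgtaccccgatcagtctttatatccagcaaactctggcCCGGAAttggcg

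Of the 10 genes, 3 held an IDR summit: icl-1, ins-7 and dod-3, each with 1. Over all protein-coding genes the share was 8.17%. The genes were picked with earlier results of these data known, so the count is a description of these 10 and not a test of DAF-16 targets in general. The same 3 genes had a region among the strongest of both replicates, taking as many from each as there are IDR regions (the top set from here on), which 5.16% of all genes had. With 551 regions from each replicate dod-3 was lost, leaving 2 genes, and with 3000 lea-1 was added, giving 4. The share of all genes at these other depths was not counted, so these counts have no background here. In a promoter, meaning from 1000 bp before the 5' end to 200 bp after it, the summit was found for ins-7 and dod-3, against 2.59% of all genes. A gene with a longer window can hold more summits. In the third of genes with the longest windows, which includes icl-1 and lea-1, 10.98% had an IDR summit, and in the third with the shortest, which includes dod-3 and ins-7, 6.27% did.

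A pooled region of any rank was present at 8 of the 10 genes, where 82.2% of all genes had one. The remaining 2, ctl-1 and hsp-12.6, had none in the pooled list or in either replicate's list. In all there were 33 pooled regions, of which 22 belonged to lea-1 and icl-1. Summits lay in coding exons for 17 of them, in introns for 11, in UTRs for 2 and outside protein-coding genes for 3. Of the 15 summits upstream of the named gene, 12 were inside another protein-coding gene, 5 of them in srh-2 upstream of icl-1. The nearest 5' end was that of the named gene itself for 14 of the 33.

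**Figure D1:**
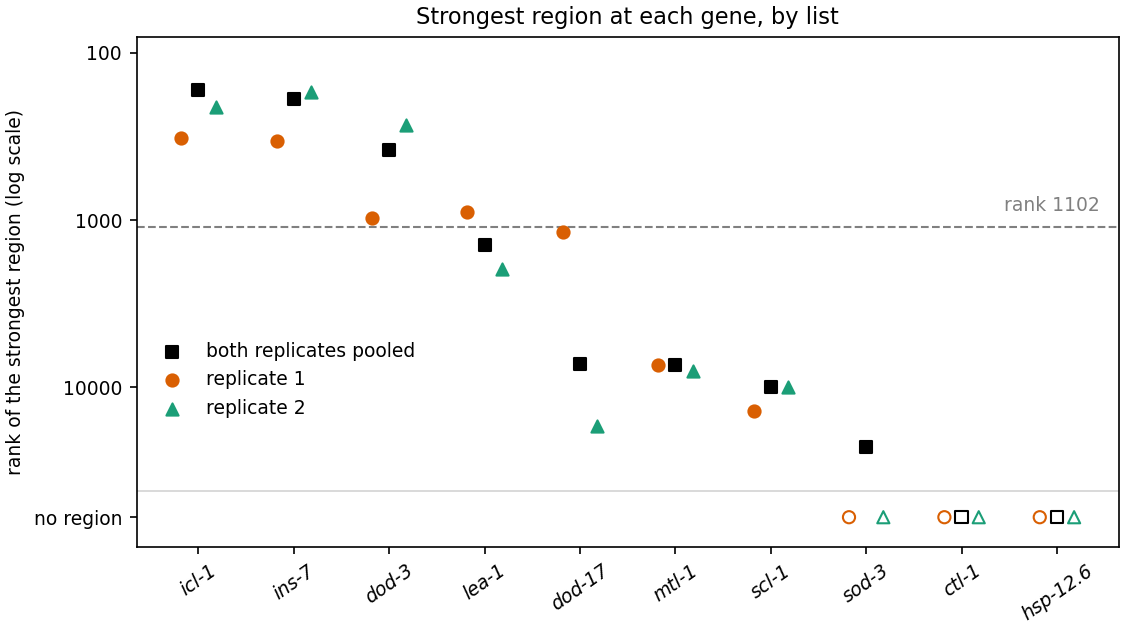
Rank of the strongest region in the window of each gene, on a log axis with the highest ranks at the top, in the pooled list (squares), replicate 1 (circles) and replicate 2 (triangles); open symbols mean no region in that list, and the dashed line marks the number of IDR regions. For icl-1, ins-7 and dod-3 all 3 symbols are above the line, and sod-3, ctl-1 and hsp-12.6 had no region in either replicate.

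The insulin-like peptide gene ins-7 encodes an agonist of DAF-2 and is itself repressed by DAF-16. Its IDR region (chromosome IV, 9682547 to 9682916) had a pooled signal of 138.5 and rank 188. Its signal was 51.4 in replicate 1 (rank 338) and 87.9 in replicate 2 (rank 172). Both replicates therefore placed it well within the top set, and 1.68% of protein-coding genes had a pooled region of this rank or higher. The summit lay 113 bp downstream of the annotated 5' end, in an intron, and the replicates' own summits were at 109 and 141 bp. A shorter annotated transcript of ins-7 begins further downstream, and the summit was at -311 bp from that start. At its edge the region overlapped ZK1251.14, an snRNA gene on the other strand, and the summit was at -147 bp from its 5' end. The part of small RNA genes in this signal was not tested. A weaker pooled region (rank 11011, signal 35.7) lay at -497 bp in the coding sequence of htas-1, and replicate 1 had no region overlapping it. The upstream element CTTATCA of ins-7, at -276 bp, lay outside the IDR region.

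dod-3, named as a gene downstream of daf-16 and known to rise with DAF-16 activity, had its IDR region directly upstream of the 5' end. It ran from 2731096 to 2731465 on chromosome V, with the summit at -183 bp outside any protein-coding gene, a pooled signal of 114.0 and rank 381. Its signal was 38.4 in replicate 1 (rank 968) and 77.3 in replicate 2 (rank 271). The replicates thus differed in how high they placed it, and replicate 1 had it just inside the top set. Their summits, at -204 and -165 bp, were on either side of the pooled one. Of all protein-coding genes, 3.28% had a pooled region of this rank or higher. CTTATCA lay within 50 bp of the pooled summit and of that of replicate 2, but not of that of replicate 1, which had CCGGAA within 50 bp instead. CTTATCA was this close for 13.4% of IDR summits and 3.32% of the other pooled summits. The GTAAACA at -50 bp was inside the region, 136 bp from the summit, and the CCGGAA at -254 bp was inside it too, though outside the 50 bp to each side of the pooled summit. No other pooled region was found in the 5477 bp of the dod-3 window.

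icl-1 encodes the bifunctional enzyme of the glyoxylate cycle, which lets the worm make sugar from stored fat. Its IDR region had the highest pooled signal of the 10 genes, 143.3 (rank 167; chromosome V, 731399 to 731768). The signal was 51.9 in replicate 1 (rank 325) and 81.6 in replicate 2 (rank 212). The summits of the 3 lists lay within a few bases of each other, at -3580, -3582 and -3579 bp. This position is 3283 bp inside srh-2, a chemoreceptor gene read from the other strand, in a part annotated as its 5' UTR. Several shorter transcripts of srh-2 start there, and the pooled summit was 175 and 181 bp downstream of 2 of these starts and at -62 bp from another. With the region given to the nearest 5' end, or with 2000 bp upstream in place of 5000 bp, icl-1 had no IDR summit.

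The window of icl-1 also held weaker regions, 5 of them in the gene body. In all there were 10 pooled regions in 8.67 kb, 11.5 per 10 kb, against a median of 2.90 per 10 kb over all protein-coding genes. Some of the 10 overlapped each other, as those at 2921 and 2606 bp did, so not all are separate sites. Their ranks went down to 24840. The strongest in the body (727400 to 727769, rank 1680, signal 69.0) had its summit 419 bp into the gene, in a coding exon. Replicate 1 ranked it 764 and replicate 2 ranked it 3750. It was followed by regions at 2921 bp (rank 2299, signal 61.5), 1524 bp (rank 2418, signal 60.4) and 2606 bp (rank 3283, signal 54.5), all in coding exons, and by one at -1305 bp in an intron of srh-2 (rank 2661, signal 58.4). Replicate 1 ranked the region at 2921 bp 1213 and that at 2606 bp 20292. Both overlapped the same region of replicate 2 (rank 1111), whose summit lay between them at 2712 bp. That rank therefore belongs to neither region alone. Replicates 1 and 2 ranked the region at 1524 bp 7255 and 1493, and that at -1305 bp 13521 and 1949. Both GTAAACA sequences upstream of icl-1, at -184 and -677 bp, were outside all pooled regions.

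**Figure D2:**
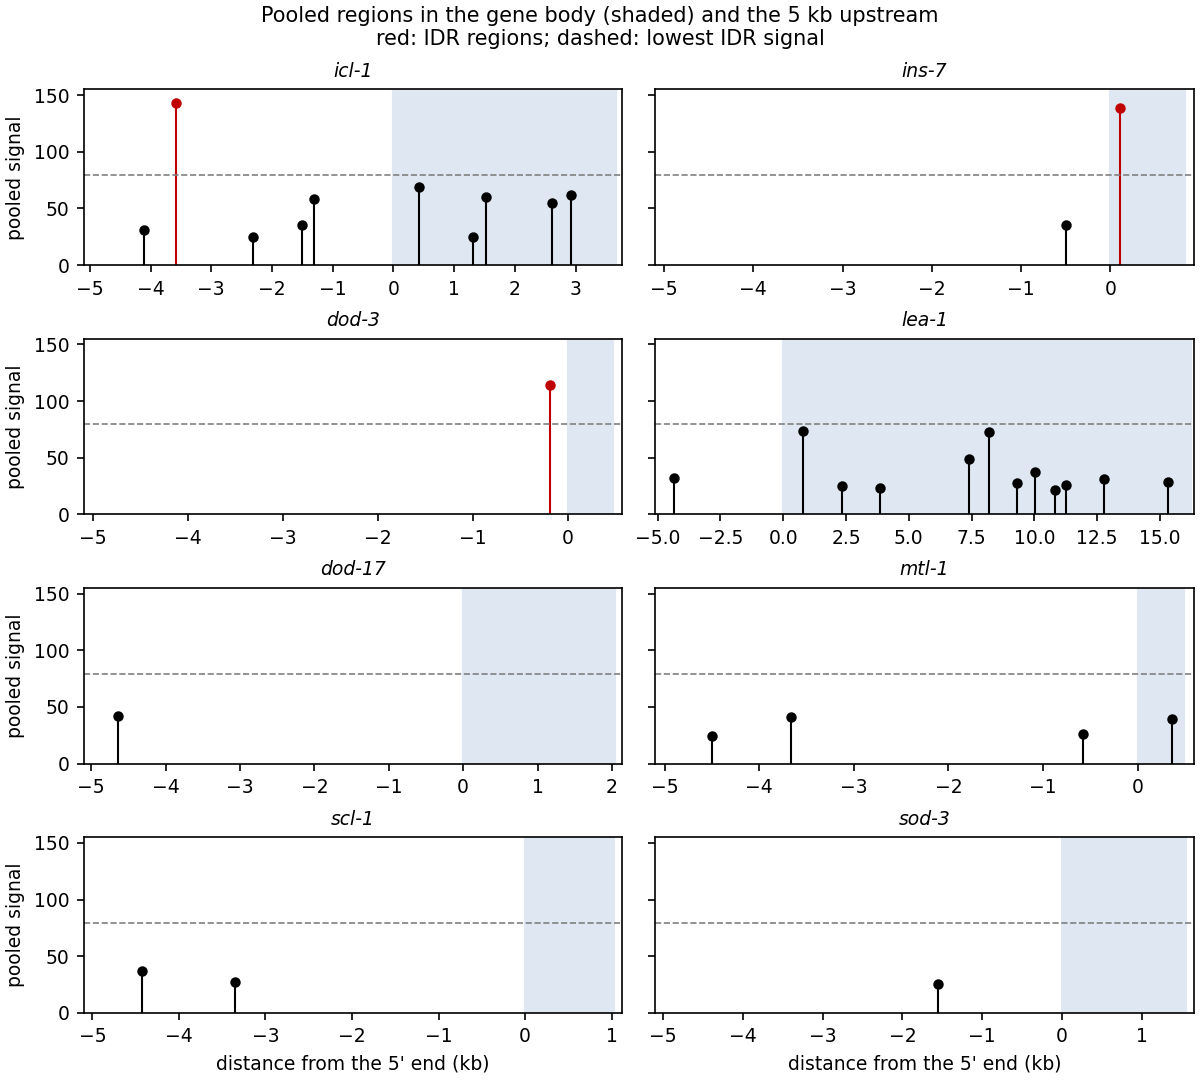
Signal of every pooled region against the distance of its summit from the 5' end of the gene, in kb, for the 8 genes with at least 1 region; the gene body is shaded, IDR regions are red and the dashed line is the lowest IDR signal, 79.4. The red points are at -3580 bp for icl-1, 113 bp for ins-7 and -183 bp for dod-3, and all regions of lea-1 stay below the line.

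lea-1 encodes a late embryogenesis abundant protein, a class known for protecting cells during drying. It came closest to the IDR list among the genes without an IDR summit. Its strongest pooled regions were both in introns, at 803 bp from the 5' end (10012541 to 10012910 on V, rank 1408, signal 73.2) and at 8203 bp (10019941 to 10020310, rank 1450, signal 72.5). The first was ranked 897 by replicate 1 and 2450 by replicate 2, and the second 2273 and 1968. Replicate 1 thus placed 1 lea-1 region in its top set and replicate 2 placed none there. The region at 8203 bp overlapped 2 annotated ncRNA genes, K08H10.15 and K08H10.16. The other 10 pooled regions ranged from rank 4386 to rank 29722. With a window of 21.2 kb, the longest of the 10, this came to 5.65 regions per 10 kb. No searched sequence lay within 50 bp of either of these stronger pooled summits, where the GC content was 30.7% and 49.5%. The summit of replicate 1 for the first, at 880 bp, had TGATAA 17 bp away.

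Among the enzymes that remove reactive oxygen, sod-3 encodes a mitochondrial manganese superoxide dismutase and is the most used reporter of DAF-16 activity. It had 1 pooled region, near the end of the list (rank 22762, signal 25.7), at -1551 bp in a coding exon of C08A9.3. Neither replicate's list had a region in the sod-3 window. Of all protein-coding genes, 75.01% had a pooled region of this rank or higher, and the nearest IDR summit was 61.99 kb upstream. The GTAAACA sequences at -377 and -114 bp were 1177 and 1440 bp from the nearest pooled summit. Only 2.64% of the 31-base words in the sod-3 window occurred elsewhere in the genome, against a median of 1.97% over all genes.

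ctl-1, which encodes a cytosolic catalase, had no region in any list, and its sequence bears on how that reads. It stands beside the catalase genes ctl-2 and ctl-3 on chromosome II. Of the 31-base words in the ctl-1 body, 100% occurred more than once in the genome, 88.3% of its distinct words also in ctl-3 and 18.4% also in ctl-2. Over the whole window the repeated share was 87.2%, which 0.856% of protein-coding genes reached. In the 197 gene windows with a repeated share of at least 80%, 6.09% held a pooled summit of any rank, against 82.9% of the other windows. How the authors placed reads that align to several positions is not given in the sources used here. The absence of a region at ctl-1 is therefore no measure of enrichment there.

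hsp-12.6 encodes a small heat shock protein. It too had no region in any list, but none of the 31-base words in its window was repeated. Its nearest IDR summit lay 4880 bp downstream of its 5' end, 3881 bp beyond its 3' end and on the far side of hsp-12.3. That region (chromosome IV, 9442163 to 9442532, signal 93.4) had rank 710 and was nearest to the 5' end of idh-1, at -1241 bp. Replicates 1 and 2 ranked it 1010 and 784.

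mtl-1, a metallothionein gene, had 4 pooled regions, none strong. The highest (rank 7323, signal 41.5) was at -3667 bp in a coding exon of W02F12.2, and was ranked 22558 by replicate 1 and 8008 by replicate 2. The next was in the gene itself, at 364 bp (rank 8332, signal 39.7), with an overlapping region in replicate 1 only. Replicate 1 had its strongest mtl-1 region at -390 bp (rank 7378, signal 21.4), in the 3' UTR of W02F12.8. Both CTTATCA and CACGTG lay within 50 bp of that summit. The highest mtl-1 summit had CCGGAA 41 bp from it, while the GTAAACA at -52 bp was outside all pooled regions. Repeated words made up 20.5% of the window, all of them upstream of the gene.

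scl-1 and dod-17 had no pooled region in the gene or within 2000 bp upstream of it. scl-1, which encodes a secreted protein of the cysteine-rich family and is known to favour long life, had pooled regions at -4431 bp in scl-11 (rank 9911, signal 37.2) and at -3355 bp in F49E11.7 (rank 21103, signal 26.8). No list had a region within the gene itself. dod-17, which DAF-16 is known to repress, had 1 pooled region at -4645 bp, within the pseudogene WBGene00014771 (rank 7251, signal 41.6). Replicate 1 ranked it 1178, just outside its top set, and replicate 2 had no region overlapping it. The strongest region of replicate 2 in the dod-17 window was elsewhere, at -3951 bp, with rank 17025. The high rank in replicate 1 was thus not repeated.

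**Figure D3:**
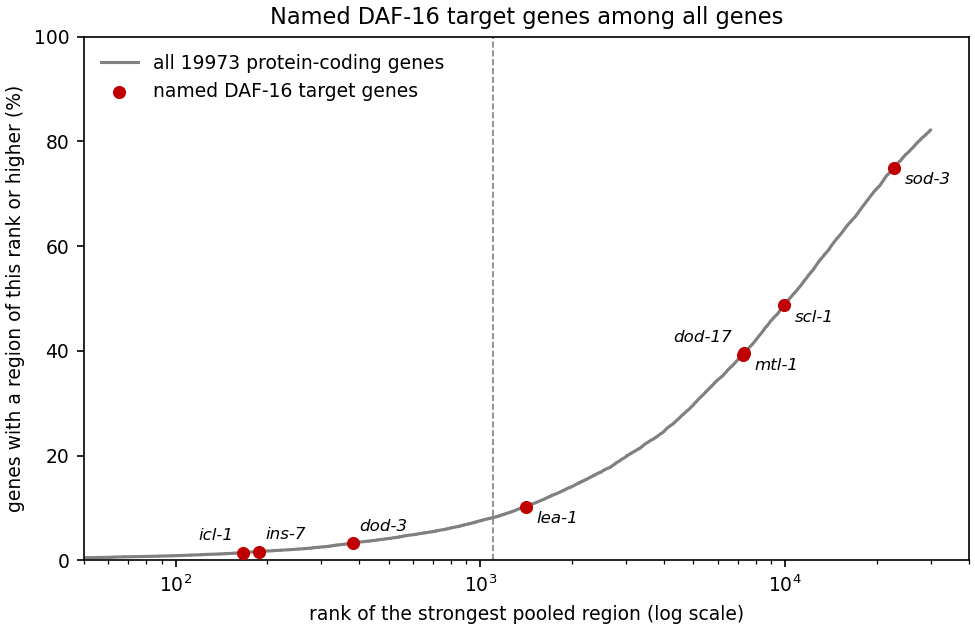
Percentage of all 19973 protein-coding genes with a pooled region of a given rank or higher in their window (grey line), against rank on a log axis, with the 8 named genes that have a region marked in red. The genes fall into icl-1, ins-7 and dod-3 at 1.47% to 3.28%, lea-1 at 10.3%, and dod-17, mtl-1, scl-1 and sod-3 between 39.2% and 75.01%. The dashed line marks the number of IDR regions.

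Both replicates had an overlapping region for 16 of the 33 pooled regions. For 10 only replicate 1 had one, for 5 only replicate 2, and for 2 neither did. The IDR regions of icl-1, ins-7 and dod-3 were among these 16. The share over all pooled regions was not counted, so these counts have no background here. A replicate region could also be matched to several pooled regions, as happened at icl-1. Outside the IDR list the replicates ranked several regions far apart, as at the icl-1 body and at lea-1. With 2 replicates and no scaling between their lists, no error can be put on these differences.

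**Figure D4:**
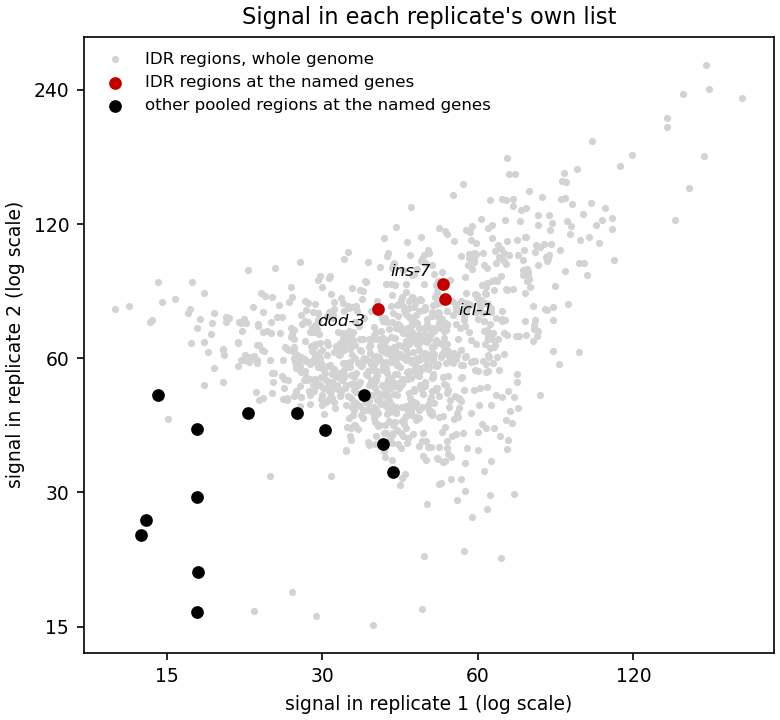
Signal in replicate 1 against signal in replicate 2, both on log axes, for IDR regions of the whole genome (grey), the 3 IDR regions at the named genes (red) and the other pooled regions at the named genes with an overlapping region in both replicates (black). The red points lie at 38.4 to 51.9 in replicate 1 and 77.3 to 87.9 in replicate 2, within the grey cloud, and most black points lie below or to the left of it.

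The DAF-16 binding element was set against the regions directly. GTAAACA was present on either strand in the 1000 bp upstream of 5 of the 10 genes, icl-1, mtl-1, dod-3, sod-3 and scl-1, and of 13.4% of all protein-coding genes. It occurred 7 times in all, and 1 of the 7, at dod-3, was inside a pooled region. The share inside pooled regions was not counted over all genes, so this count has no background here. Each occurrence is shown with 11 bases to each side, read towards the gene, with searched sequences in capitals; GTAAACA appears as TGTTTAC where it is on the other strand.
icl-1 at -184 bp: acaaaaaaagcGTAAACAaaataattgac
icl-1 at -677 bp: ttatatgtaatTGTTTACtcaactttttc
mtl-1 at -52 bp: tatttgaagtgGTAAACAgccagcaaaaa
dod-3 at -50 bp: ttacgTGATAATGTTTACcccgcgggtgt
sod-3 at -377 bp: acctttgacttTGTTTACtttgttctcgt
sod-3 at -114 bp: ccagtgcgggtTGTTTACgcgttttcaag
scl-1 at -46 bp: aagattgttgtTGTTTACgttttgcaaat
Within 50 bp of a summit GTAAACA was found for 0 of the 33 pooled regions, for 2.09% of IDR summits and for 1.14% of the other pooled summits.

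CTTATCA stood upstream of lea-1, mtl-1, dod-3, ins-7 and ctl-1, 5 of the 10, and of 20.5% of all genes. TGATAA, which also counts every CTTATCA, was upstream of 8, and of 66.0% of all genes. Within 50 bp of a summit TGATAA was found at 3 of the 33 regions, 9.09%, where IDR summits had it in 27.0% and other pooled summits in 9.83%. An ETS sequence, CCGGAA or CCGGAT, was within 50 bp of 2 of the 33 summits, at mtl-1 and in the icl-1 body, and of neither the dod-3 nor the ins-7 pooled summit. At the dod-3 summit of replicate 1 CCGGAA was 45 bp away. Over the genome 4.81% of IDR summits and 7.46% of other pooled summits had one. Summit windows of the IDR list had a median GC content of 46.5% and the others 42.6%, and the part of base composition in these shares was not tested. CACGTG was at none of the 33 pooled summits, and at 5.35% of IDR summits and 2.89% of other pooled summits. A sequence match is a description and shows no binding.

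A further 39 annotated genes known to respond to DAF-16 were counted the same way, from 39 listed symbols of which sodh-1 had no match and hsp-16.1 names 2 genes. An IDR summit was present in the windows of 4, or 10.3%, near the 8.17% of all genes. stdh-1, a steroid dehydrogenase family gene, had the strongest, a narrow region of 185 bp in its coding sequence (V, 13907721 to 13907905, signal 136.1, rank 203, ranks 212 and 290 in replicates 1 and 2). It was the 1 gene of the 39, or 2.56%, with a region in the top set of both replicates, where 5.16% of all genes had one. fat-5, a fatty acid desaturase gene, had one at -3068 bp (V, 17721751 to 17722120, signal 102.2, rank 558), which replicate 1 ranked 2462 and replicate 2 ranked 431. The nearest 5' end was that of C06B3.6 for the stdh-1 summit and that of str-77 for the fat-5 summit. pnk-1, a pantothenate kinase gene, had one at -818 bp (signal 87.2, rank 869, ranks 2440 and 634), and dct-18 had one at -276 bp just inside the list (signal 79.5, rank 1097, ranks 673 and 2578).

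Just outside the IDR list were dod-6 at -621 bp (rank 1162, signal 77.9), mdl-1, a gene of the Mad family of basic helix-loop-helix factors, at -90 bp (rank 1196, signal 77.1), and a region in gpd-2, a glyceraldehyde-3-phosphate dehydrogenase gene, which also falls in the window of its neighbour gpd-3 (rank 1232, signal 76.4). The other small heat shock and catalase genes of this list had no IDR summit. Most genes had none, since the share with one was 8.17% over all protein-coding genes. Of the 39 genes, 3 had no pooled region of any rank, and 92.3% had one, where 82.2% of all genes did. The catalase gene ctl-3 was among those without, and it holds 88.3% of the distinct sequence words of ctl-1. The repeated share of its own window was not counted, and its lack of a region is not read as a lack of enrichment.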

How the data were processed

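The ChIP-seq region lists of 2 replicates are on build ce11, per the labels. Text files deposited beside them say that each list was derived from alignments and a further file, and the IDR list from the pooled and replicate lists. The signal value of a region and its -log10 q value were deposited by the authors. The q value was not used for ranking, since 1393 of the 30000 pooled regions share its ceiling. Below the ceiling it does separate regions. Its -log10 was 3.05 for the strongest region in the icl-1 body and 2.97 for that of lea-1. For the strongest pooled regions of mtl-1, scl-1 and sod-3 it was 0.758, 0.534 and 0.143, which are weak values. Not given in the sources used here: aligner, caller, IDR threshold and depth, so precision is unknown. The replicates had separate biosamples. The labels' antibody field names ets-4 and their description anti-GFP. There were 0 columns of other samples.

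Positions were compared with Ensembl release 115 (WBcel235). No region ended beyond a chromosome of the RefSeq genome, the source of all sequences, and RefSeq gave the same bounds for all 10 genes. Coordinates are 1-based, and distances are negative upstream. Regions of 2 lists were matched by at least 1 bp. Word repeats are 31-mers occurring more than once on either strand. Window assignment was tested on simulated summits (200 of 200 planted genes found among 19973). The genes, lists and sequences were chosen with earlier results of these data known. All 10 genes are named with every IDR region, and other genes by nearness to a summit, overlap or rank. No statistical test was made. The tools were matplotlib 3.10.9, pandas 2.3.3, scipy 1.17.1, numpy 2.4.6 and Python 3.11.15. Alternatives varied the window, the promoter, the assignment, the depth of the lists, regions at small RNA genes and each replicate.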

Additional observations from a re-analysis of the deposited data

How the results depend on the processing

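The count of genes with an IDR summit stayed between 2 and 4 of 10. It was 2 with 2000 or 1000 bp upstream and with the nearest 5' end only, where icl-1 was lost, and 2 without regions at small RNA genes, where ins-7 was lost. It was 4 when the strongest regions of replicate 1 alone were used, which added lea-1. The same choice for replicate 2 gave 3. Of all genes, 8.32% had a summit in the replicate 1 set and 8.39% in that of replicate 2. Summits in the windows of the 10 genes then ranged from 3 to 5 between the replicates. Over all genes the share was 5.32% with 2000 bp upstream, 4.22% with 1000 bp, 8.62% with any overlap, 4.18% with the nearest 5' end, 4.55% with the strongest 551 IDR regions and 7.08% without regions at small RNA genes. With a shorter promoter, 500 bp before and 100 bp after the 5' end, 1 gene, dod-3, was left. The ins-7 summit, 113 bp downstream, is outside that promoter. The share of all genes was not counted for it, so this count has no background here.

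The best rank in either replicate alone ranged from 271 to 968 for dod-3, 172 to 338 for ins-7, 212 to 325 for icl-1, 897 to 1968 for lea-1, 1178 to 17025 for dod-17, 7378 to 8008 for mtl-1 and 10012 to 13976 for scl-1. For lea-1, dod-17, mtl-1 and scl-1 the best ranks of the replicates belong to different regions, so a narrow range there shows no agreement. The best pooled rank with 2000 bp upstream was 1680 for icl-1 and 8332 for mtl-1, and scl-1 and dod-17 had no pooled region there. Searching 1000 bp upstream in place of summits, a choice made after seeing the data, gave 5 genes with GTAAACA, 5 with CTTATCA and 8 with TGATAA. It gave 3 with CACGTG, against 15.2% of all genes. For the ETS sequences it gave 2 with CCGGAA, against 28.2%, and 0 with CCGGAT, against 15.8%. No paired analysis was possible because there was 1 group. Unknown read depth limits every rank, most of all the low ones.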
